A study of Homo sapiens
Mus musculus with 24 samples.

Results

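The comparison described here set 4 tumors grown in lean mice (Lean) against 4 tumors grown in mice fed a high-fat diet and given saline (CTRL), 8 of the 24 tumors sequenced in the series. The libraries were chosen by the diet and intervention named in their labels and by no measured value. Every host was a B6/Rag1KO mouse, a black 6 strain without the recombinase Rag1 and therefore without mature T and B lymphocytes, while natural killer cells and myeloid cells are still made. Every host carried MDA-MB-231 cells, 1 human triple negative breast cancer line, injected under the skin of the neck in a Matrigel and collagen I plug when the hosts were 14 weeks old and had eaten their diet for 10 weeks per the labels. The study's text gives a later age and a longer time on diet. CTRL mice were assigned to vehicle once tumors exceeded 200 mm3 and received saline into the peritoneum every week, whereas no injection is named for Lean mice, which were followed as the diet control. The diet and the injections therefore cannot be told apart in this comparison. The composition of the lean diet was not given in the sources used here, and the count tables carry no body weight, glucose or tumor size, so the degree of leanness or obesity of each host was not part of the data. The other 16 libraries came from high-fat hosts given chemotherapy, a moringa concentrate diet (MC) or both. They are used below as a range or median beside a value. They also entered the filter, the scaling and the spread behind each SE and p-value, unless the 8 libraries alone are named.

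A xenograft holds cells of both species. Reads assigned to human genes report on the injected cancer cells, and reads assigned to mouse genes report on the vessels, fibroblasts, immune cells, fat and muscle that the host supplied. Obesity enlarges white fat, which secretes leptin in proportion to fat mass and adiponectin in inverse proportion to it, and it draws lipid-laden macrophages into fat. It also raises insulin, which acts on tumor cells through the insulin and insulin-like growth factor receptors, and fat cells close to a tumor can supply it with fatty acids. The question of the comparison, as its design implies, is whether tumor or host genes differed between lean and obese hosts when neither had received an anticancer treatment.

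Levels are given as normalized counts, which are reads per gene divided by the size factor of the library. They were made from a 3′ end assay that yields 1 tag per transcript, so gene length does not enter. A fold change is Lean minus CTRL on the log2 scale, positive where Lean was higher, with its standard error (SE). In both species no gene passed the 3 criteria of the study in edgeR. These were an adjusted p below 0.05, a mean above 30 counts, taken here over all 24 libraries, and a fold change above 1.5. In edgeR 0 of 15029 mouse genes (0.0%) and 0 of 16588 human genes (0.0%) were called, with a lowest adjusted p of 1 and 0.685. An unadjusted p below 0.05 was reached by 468 mouse genes (3.11%) and 1175 human genes (7.08%). DESeq2 called 1 gene in each species, 1 of 16667 in the mouse (0.006%), which was Lmod2, and 1 of 18880 in the human table (0.0053%). These numbers moved with single libraries. Without CTRL 31, 1 gene in each species passed in edgeR, 856 mouse and 2416 human genes had an unadjusted p below 0.05, and DESeq2 called 119 human genes. All differences named below are therefore values that did not pass the test across genes, unless stated otherwise.

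Sequencing depth did not separate the groups. Mouse genes received 4205911 to 6203423 counts in Lean and 5005233 to 7919564 in CTRL, and human genes received 8318215 to 10908192 and 9447791 to 14107092. Human genes took 64.5% ± 1.76 (SD, n = 4) of the counts in Lean and 66.0% ± 2.85 (SD, n = 4) in CTRL, a difference smaller than the spread (two-sided exact permutation p = 0.457, where the smallest p that 4 against 4 allows is 0.0286). Among the other 16 libraries the share ran from 47.8% to 74.0%. The RNA of Lean 3 had an extra column cleanup, the only such library among the 8.

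The CTRL tumors were less alike than the Lean tumors. The median SD of a gene over 4 libraries, in log2 units, was 0.28 in Lean and 0.39 in CTRL for mouse genes, and 0.30 and 0.45 for human genes. CTRL had the wider spread in 67.4% of mouse genes and in 73.5% of human genes. Without CTRL 17 these shares were 61.5% and 66.4%. CTRL 44 was the highest or the lowest of the 8 libraries for 46.8% of mouse genes and 43.3% of human genes, and CTRL 17 for 33% and 39.8%.

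Those 2 CTRL tumors were low in epithelial transcripts of the cancer cells. MDA-MB-231 is known as a mesenchymal line with little E-cadherin in culture, yet transcripts of epithelial genes were abundant in most of these tumors. CDH1, which encodes E-cadherin, was at 2311, 3043, 633 and 2580 normalized counts in Lean 3, 21, 24 and 54, and at 2.73, 2975, 312 and 2880 in CTRL 17, 31, 44 and 70. CTRL 17 was nearly without it, CTRL 44 and Lean 24 were low, and the other 5 lay close together. In the other 16 libraries CDH1 ran from 1656 to 4472. VIM, the mesenchymal filament vimentin, went the other way, with 14261, 8048, 24619 and 14254 counts in Lean and 71918, 10488, 50209 and 9838 in CTRL. The 3 libraries lowest in CDH1 were the 3 highest in VIM.

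The same 3 libraries stood apart across whole lists. The level of a list is the mean of log2(normalized count + 1) over its genes. The 18 epithelial genes had a level of 3.30 in CTRL 17, 6.43 in CTRL 44 and 7.66 in Lean 24, against 9.07 to 9.39 in the other 5 and 8.79 to 9.80 in the other 16 libraries. The 14 genes listed as present in the MDA-MB-231 line were all in the table, with levels from 11.70 to 12.74 in the 8 libraries. Luminal breast genes, listed as low in this line, reached levels of 9.56 to 9.88 in the 5 libraries and 6.79 in CTRL 17. The measured transcripts thus went partly against the label of a mesenchymal line, most in those 5 tumors. Results are given below with all 8 libraries and, where they rest on these tumors, without CTRL 17 or without all 3.

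**Figure D1:**
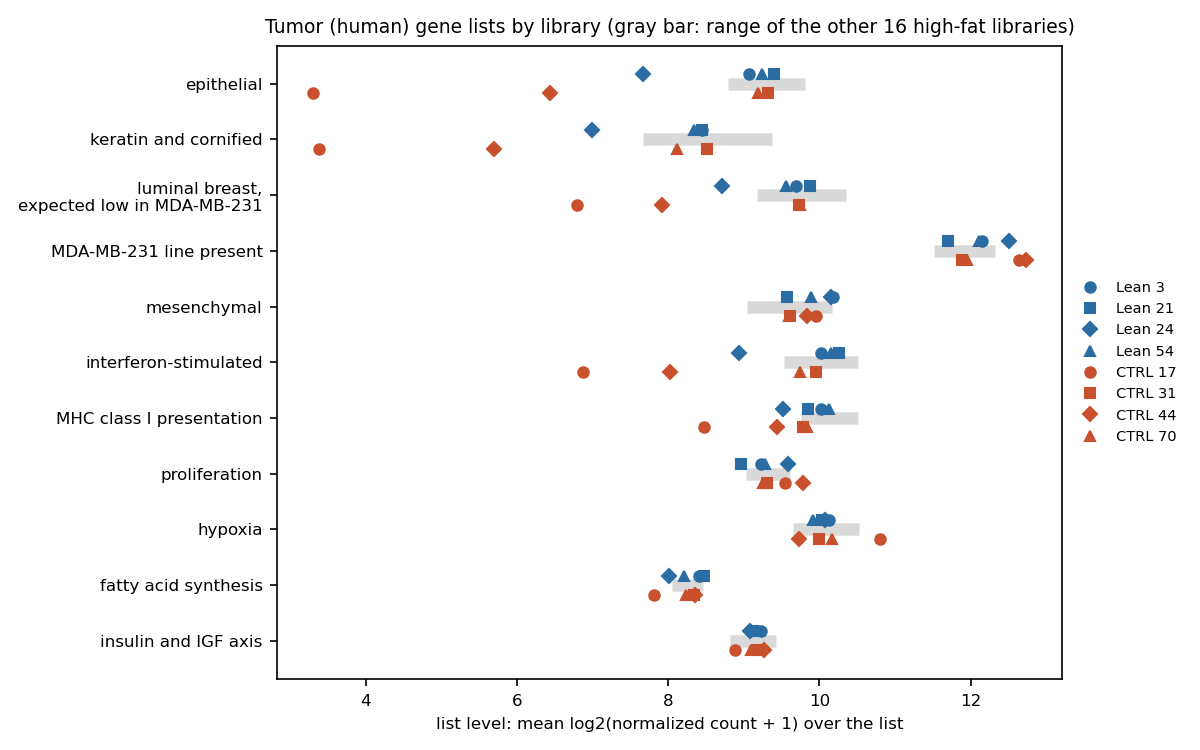
Level of 11 human gene lists in each of the 8 libraries, as mean log2(normalized count + 1) on the horizontal axis, with Lean in blue, CTRL in red, 1 symbol per library, and the range of the other 16 libraries as a gray bar. CTRL 17 (red circle) lies far to the left for epithelial, keratin, luminal and interferon-stimulated genes (3.30, 3.38, 6.79 and 6.87), followed by CTRL 44 (red diamond) and Lean 24 (blue diamond).

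In the host, CTRL 17 was poor in vessels and rich in inflammatory transcripts. Pecam1, the endothelial adhesion molecule CD31, was at 111 counts there and at 670 to 893 in the other CTRL tumors, and the endothelial list had a level of 4.87 against 7.21 to 7.70. Saa3, an acute phase serum amyloid, was at 14786 counts in CTRL 17 and at 272 to 1364 in the other 3. Retnla, an alternative activation product of macrophages, was at 3929 against 420 to 864. CTRL 44 did not share this profile, with 670 counts of Pecam1 and 272 of Saa3.

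Among mouse genes, hemoglobins separated the groups. Hba-a1, an alpha globin of red cells, was at 946, 971, 1011 and 1193 counts in Lean 3, 21, 24 and 54 and at 168, 459, 373 and 397 in CTRL 17, 31, 44 and 70. Every Lean tumor was above every CTRL tumor, with a log2 fold change of 1.57 (SE 0.47, edgeR unadjusted p = 0.00265, adjusted p = 1), and 1.33 without CTRL 17. Hbb-bs, a beta globin, was at 2578, 2930, 2508 and 2842 in Lean and at 352, 1289, 1357 and 895 in CTRL (log2 fold change 1.49, SE 0.50), again without overlap.

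Of the 9 red cell genes tested, 6 were higher in Lean (median 1.23). For 4 of them the unadjusted p was below 0.05 in that direction, which held for 1.37% of all mouse genes, and for 5 the groups did not overlap (1.46% of all mouse genes). The level of the red cell list was 7.44 to 7.72 in Lean and 6.20 to 7.10 in CTRL. Without CTRL 17 the median was 0.99 and 2 members were higher with an unadjusted p below 0.05, as were 153 of all 15187 mouse genes then tested. Ahsp and Slc4a1, which define the red cell lineage, were not in the table. The other 16 high-fat libraries did not resemble CTRL here. They ran from 594 to 4350 counts for Hba-a1, so the Lean tumors lay inside their range and the 4 CTRL tumors below all of the other 20 libraries. Hba-a2 and Hbb-bs had the same order, and Btbd6 and Mgmt were the remaining mouse genes with it.

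The human table held a globin with the same order. HBD, the delta chain, was at 24.8, 55.8, 28.2 and 43 counts in Lean and at 1.82, 14.1, 6.91 and 15.4 in CTRL (log2 fold change 1.95, SE 0.69). Whether these counts came from the cancer cells or from reads of mouse globins counted on this gene was not tested.

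Endothelial genes went in the same direction. All 19 tested members were higher in Lean (48.7% of all mouse genes were higher), with a median of 0.57 and single values from 0.26 to 0.96. Pecam1 was at 1452, 1317, 1172 and 899 counts in Lean and at 111, 893, 670 and 821 in CTRL (log2 fold change 0.96, SE 0.38). The groups did not overlap, although Lean 54 and CTRL 31 differed by few counts. Pecam1 was the only member without overlap (1.46% of all mouse genes were higher in this way). For 2 members the unadjusted p was below 0.05 in that direction (1.37% of all mouse genes). Sox17, an endothelial transcription factor of arteries, was at 52.8 to 75.7 in Lean and at 5.76, 34.8, 28.2 and 64.1 in CTRL. Flt1, a receptor of vascular endothelial growth factor, overlapped, with 1042 to 1367 in Lean and 231 to 1306 in CTRL. Without CTRL 17, 18 of 19 endothelial genes were higher with a median of 0.29, and without the 3 libraries 16 of 19 with a median of 0.19. In bulk tissue, fewer cells of a type and less RNA per cell cannot be told apart.

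Pericytes and smooth muscle, the cells that wrap vessels, followed less firmly. Of 13 genes 11 were higher (median 0.45), but the median was 0.11 without CTRL 17 and -0.05 without the 3 libraries. Kcnj8, a potassium channel subunit of pericytes, was at 78.9, 97.4, 123 and 96.3 in Lean and at 7.68, 57.9, 33.3 and 76.0 in CTRL (log2 fold change 1.16, SE 0.37), the margin between Lean 3 and CTRL 70 being small. Of the 13 genes it was the only 1 without overlap (1.46% of all mouse genes) and the only 1 with an unadjusted p below 0.05 (1.37% in that direction). Rgs5, another pericyte gene, overlapped, with 1735 to 3549 in Lean and 157 to 3520 in CTRL. Ramp2, the partner of the adrenomedullin receptor in vessels, was at 208 to 336 in Lean and at 105 to 205 in CTRL (log2 fold change 0.67, SE 0.22).

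**Figure D2:**
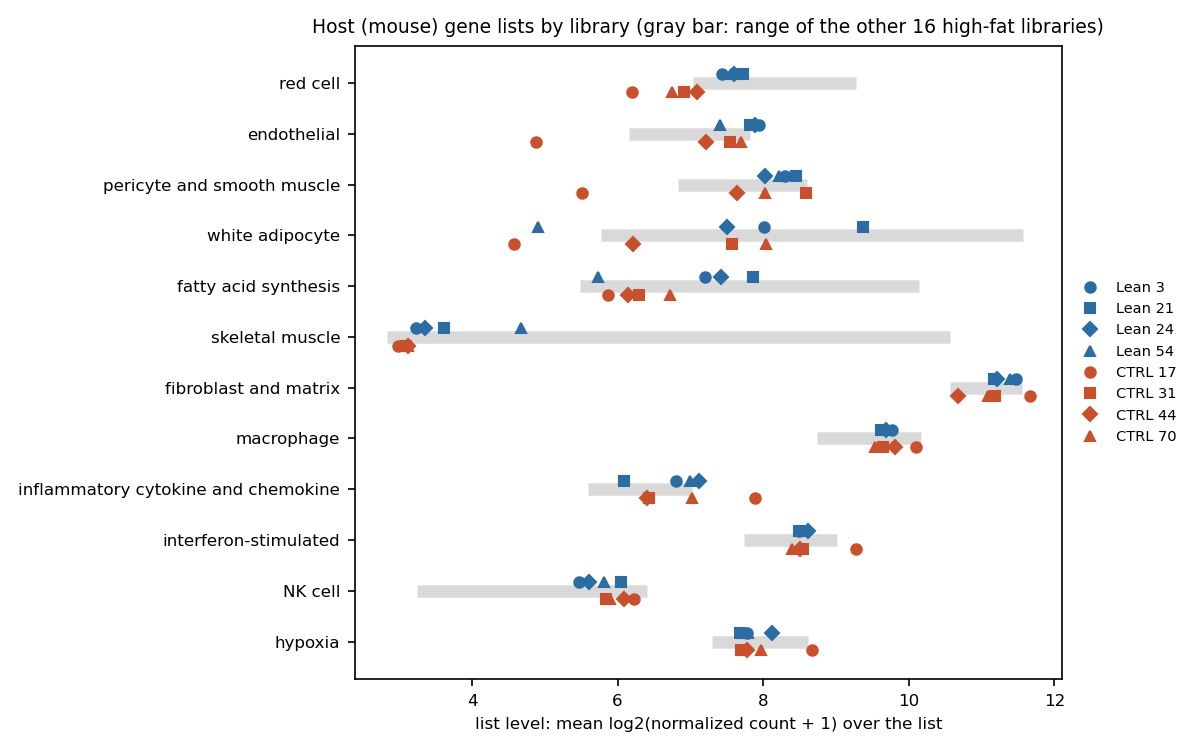
Level of 12 mouse gene lists in each of the 8 libraries, as mean log2(normalized count + 1) on the horizontal axis, with Lean in blue, CTRL in red, 1 symbol per library, and the range of the other 16 libraries as a gray bar. Red cell levels were 7.44 to 7.72 in Lean and 6.20 to 7.10 in CTRL, while white adipocyte levels spanned 4.91 to 9.37 in Lean and 4.58 to 8.04 in CTRL.

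Fat-cell transcripts did not sort the tumors by the diet of the host. Lep, the leptin gene, was at 29.4, 80.5, 14.4 and 0.0 counts in Lean and at 0.0, 58.9, 15.4 and 70.4 in CTRL (log2 fold change -0.23, SE 1.40). Adipoq, the adiponectin gene, was at 496, 1408, 308 and 12.5 in Lean and at 7.68, 307, 67.9 and 408 in CTRL (log2 fold change 1.48, SE 1.40). Both groups held tumors with nearly none of either transcript, Lean 54 and CTRL 17, and tumors with much of it.

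The white adipocyte list varied from tumor to tumor in the same way. Of its 18 members 16 were higher in Lean (median 1.03), with 0 at an unadjusted p below 0.05 and 0 without overlap. Its level ran from 4.91 in Lean 54 to 9.37 in Lean 21, and from 4.58 in CTRL 17 to 8.04 in CTRL 70. The median was 0.22 without Lean 21 and 1.36 without CTRL 70. Fabp4, a fatty acid carrier of fat and endothelium, was at 823 to 7414 in Lean and 314 to 4321 in CTRL, and Cfd, the adipose complement factor adipsin, at 40.0 to 9006 and 31.7 to 2623. Levels of this list differed more within each group than between the group means of 7.44 and 6.60.

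Host genes of fatty acid synthesis were mostly higher in Lean, none past the test across genes. Of 17 members 16 were higher in Lean (median 0.88), or 0.93 without CTRL 17 and 0.56 without the 3 libraries. Lean 21 alone moved it as far, with a median of 0.54 without that tumor. Fasn, the fatty acid synthase, was at 839, 2535, 1072 and 135 in Lean and at 171, 210, 332 and 217 in CTRL. Lean 3, 21 and 24 lay above all CTRL tumors and Lean 54 below them all (log2 fold change 2.32, SE 1.12, edgeR unadjusted p = 0.0489, adjusted p = 1). Scd1, the stearoyl-CoA desaturase, was at 2887, 7577, 3049 and 83.8 in Lean and at 126, 902, 383 and 1332 in CTRL. Thrsp, a lipogenic nuclear protein, was at 157, 462, 260 and 15.0 in Lean and at 10.6, 18.3, 71.8 and 49.0 in CTRL. The Lean tumor with the lowest values, Lean 54, was also the Lean tumor with the least Adipoq, and the part of fat content in this list was not tested.

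Fatty acid oxidation and PPAR genes were higher in 20 of 26 cases (median 0.30), with 0 below an unadjusted p of 0.05, and oxidative phosphorylation genes in 26 of 42 (median 0.07). Sterol synthesis genes were higher in 10 of 21 (median -0.02). Brown adipocyte genes were higher in 8 of 10 (median 0.57, -0.01 without Lean 24). Ucp1, the uncoupling protein of brown fat, was at 33.6, 13.1, 173 and 22.5 in Lean and at 27.8, 6.76, 83.3 and 15.7 in CTRL, highest in Lean 24 and CTRL 44, so that both groups held a tumor with some of it.

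Skeletal muscle genes were higher in 22 of 28 cases (median 0.93), and every Lean level of the list was above every CTRL level. That order of levels held for 2 of the 30 mouse lists. Of the 28 members, 0 had an unadjusted p below 0.05 and 0 were higher without overlap. The groups did not overlap for 1 member that was lower in Lean (1.48% of all mouse genes were). The Lean levels were 3.23, 3.61, 3.36 and 4.67, and the CTRL levels 2.99 to 3.12. Levels in the other 16 libraries ran from 2.83 to 10.57. Ttn, the giant titin of the sarcomere, was at 46.1, 59, 37.4 and 228 in Lean and at 36.5, 44.4, 89.7 and 23.3 in CTRL. Lean 54 was the highest for both, and the list median was 0.34 without it. Lmod2, a thin filament protein of muscle and the gene called by DESeq2, was at 0.0, 1.87, 0.0 and 2.50 counts in Lean and at 0.0 in all 4 CTRL tumors, too few for a fold change. It met the criterion of a mean above 30 counts only through the other 16 libraries, where it reached 419.

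Hormone and growth factor genes of the host gave a small list median. Of 24 genes of the insulin and insulin-like growth factor axis 16 were higher (median 0.05). Igf1, insulin-like growth factor 1, was at 1565, 1477, 945 and 881 in Lean and at 672, 988, 610 and 972 in CTRL (log2 fold change 0.59, SE 0.32), with overlap. Igfbp4, which binds that factor, was at 8214 to 13409 in Lean and 2706 to 9406 in CTRL. Lepr, the leptin receptor, was at 51.2, 36.5, 14.4 and 31.3 in Lean and at 12.5, 20.3, 12.8 and 23.3 in CTRL (log2 fold change 0.94, SE 0.42). Rarres2, the adipokine chemerin, was at 405 to 474 in Lean and 328 to 566 in 3 CTRL tumors but at 4626 in CTRL 17, and its log2 fold change of -1.72 became -0.01 without that tumor. In the list of adipokines and their receptors, 12 of 16 were higher (median 0.37).

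Macrophage genes gave small values. Of 18 members 4 were higher in Lean (median -0.17, -0.04 without CTRL 17), and the list level was 9.62 to 9.77 in Lean and 9.54 to 10.10 in CTRL. Adgre1, the macrophage antigen F4/80, was at 579, 508, 626 and 449 in Lean and at 580, 518, 861 and 523 in CTRL. The groups did not overlap for 2 members, both lower in Lean (1.48% of all mouse genes were) and named after their values were seen. Ms4a7, a membrane protein of macrophages, was at 867, 886, 691 and 880 in Lean and at 1331, 1047, 996 and 1014 in CTRL (log2 fold change -0.39, SE 0.27). C1qc, a chain of complement C1q, was at 3368, 2803, 3469 and 3118 in Lean and at 4407, 3574, 4347 and 3682 in CTRL (-0.32, SE 0.22). Neither had an unadjusted p below 0.05. The lipid-associated macrophage list, a state described in obese fat, had 8 of 14 members higher (median 0.09). Trem2, the lipid receptor that defines that state, was at 232, 139, 257 and 193 in Lean and at 324, 263, 329 and 216 in CTRL (log2 fold change -0.45, SE 0.29), with overlap.

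The lower cytokine values in Lean moved most with 1 tumor, CTRL 17. Of 19 inflammatory cytokine and chemokine genes 5 were higher (median -0.49), and without CTRL 17 there were 11 of 19 (median 0.11). Without the 3 libraries, CTRL 17 among them, 7 of 19 were higher (median -0.09). Saa3 had a log2 fold change of -2.23 (SE 0.82) that became 0.33 without CTRL 17, and for the chemokine gene Ccl2 -0.54 became 0.11. Ccl8, a monocyte chemokine, was the member without overlap, at 1647 to 2151 in Lean and at 4512, 2254, 2465 and 2264 in CTRL (log2 fold change -0.62, -0.32 without CTRL 17). Of all mouse genes 1.48% were lower in Lean without overlap. Cxcl2, a neutrophil attractant, was at 138, 96.4, 297 and 264 in Lean and at 43.2, 60.8, 38.4 and 177 in CTRL. Alternative activation genes behaved alike, with 4 of 12 higher (median -0.26) and 8 of 12 without CTRL 17 (median 0.09). Without the 3 libraries 5 of 12 were higher (median -0.09). Retnla and Arg1, arginase 1, varied within both groups, Arg1 being at 814 counts in Lean 24 and at 56.2 to 208 in the other 7.

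Other immune lists gave small values. Interferon-stimulated genes of the host were higher in 4 of 34 cases (median -0.20), but in 20 of 34 without CTRL 17 (median 0.04). Oas1a, an antiviral RNA sensor, was the member without overlap (1.48% of all mouse genes were lower without it). It was at 47, 47.8, 46.0 and 42.5 in Lean and at 73.9, 57.9, 83.3 and 79.8 in CTRL (log2 fold change -0.67, SE 0.35, -0.68 without CTRL 17). Of 12 natural killer genes 2 were higher (median -0.25, -0.23 without CTRL 17). Gzmb, the cytotoxic protease granzyme B, was at 15.1 to 23.4 in Lean and at 104, 15.4, 42.3 and 22.6 in CTRL, and the chemokine gene Xcl1 was at 140 to 215 in Lean and at 447 in CTRL 44 against 155 to 200 in the other CTRL tumors.

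Neutrophil genes were higher in 10 of 13 cases (median 0.66, 0.13 without the 3 libraries). S100a8, a calprotectin subunit, was at 752 to 1157 in Lean and at 64.3, 686, 277 and 968 in CTRL. Padi4, which citrullinates histones in neutrophils, went against the list, at 2.52, 2.81, 6.71 and 2.50 counts in Lean and at 31.7, 11.6, 16.7 and 8.17 in CTRL (log2 fold change -2.16, SE 0.60, unadjusted p = 0.00156, adjusted p = 1 in edgeR). The groups did not overlap, and the value was -1.67 without CTRL 17. Padi4 was the 1 member lower without overlap (1.48% of all mouse genes were), and 1 other member was higher without it (1.46%). Padi4 was also the only member with an unadjusted p below 0.05 (1.74% of all mouse genes in its direction). Ly6g and Cd177, which define mouse neutrophils, were not in the table.

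Mast cells were represented by genes that went both ways. Hdc, the histidine decarboxylase that makes histamine, was at 126, 143, 137 and 150 in Lean and at 23.0, 76.3, 37.2 and 107 in CTRL (log2 fold change 1.17, SE 0.46). The receptor gene Kit was at 68.8 to 85.3 and at 21.1 to 67.9, and both were without overlap (1.46% of all mouse genes were higher in this way). Cpa3, the mast cell carboxypeptidase, was at 99.8, 89.0, 24.9 and 32.5 in Lean and at 146, 50.2, 71.8 and 18.9 in CTRL, with full overlap. Hdc and Kit are also made by cells other than mast cells, and of the 8 members tested 3 were higher (median -0.15), or 7 of 8 without CTRL 17 (median 0.38) and 8 of 8 without the 3 libraries (median 0.72). Lymphocyte genes were scarce, with 9 of 16 not in the table, Cd3e and Ms4a1 among them, in hosts that all lacked Rag1. Of the 6 tested 1 was higher.

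Fibroblast and matrix genes were higher in 15 of 22 cases (median 0.12) and in 20 of 22 without CTRL 17 (median 0.26). Fn1, fibronectin, was at 11880, 10521, 8059 and 10914 in Lean and at 5772, 8134, 7567 and 8551 in CTRL (log2 fold change 0.47, SE 0.23), with an overlap of 1 tumor. Col1a1, a chain of collagen I, was at 19260 to 34562 in Lean and at 22044 to 43851 in CTRL. Dividing host cells gave 9 of 24 genes higher (median -0.14), and Ccna2, cyclin A2, was at 44.9 to 81.4 in Lean and 57.2 to 141 in CTRL (log2 fold change -0.56, SE 0.23). Host p53 targets were higher in 16 of 19 cases with small values (median 0.11), Cdkn1a, the cell cycle inhibitor p21, being at 566 to 1154 in Lean and 577 to 1142 in CTRL.

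Hypoxia genes of the host were higher in 5 of 23 cases (median -0.19) and in 13 of 23 without CTRL 17 (median 0.12). Without the 3 libraries 11 of 23 were higher (median -0.02). Mxi1, a MYC antagonist induced by hypoxia, was at 294 to 408 in Lean and at 763, 292, 784 and 222 in CTRL (log2 fold change -0.63, SE 0.30), high in CTRL 17 and CTRL 44 only. Circadian clock genes were higher in 12 of 16 cases (median 0.33, 0.00 without Lean 21). Dbp, a clock output gene, was at 67.9, 372, 82.4 and 258 in Lean and at 66.3, 111, 137 and 134 in CTRL, high in Lean 21 and Lean 54. Times of tumor collection were not given in the sources used here.

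**Figure D3:**
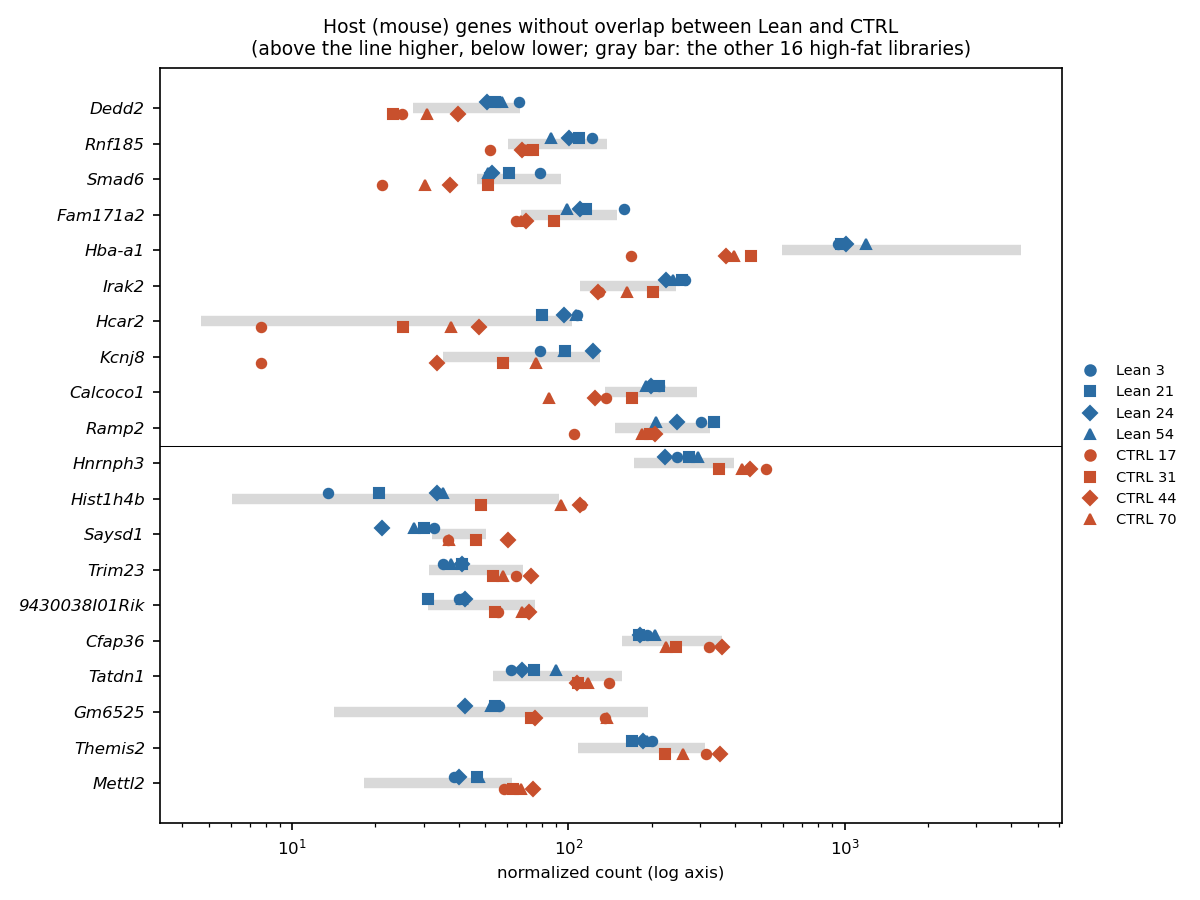
Normalized counts on a log axis of the 10 higher and 10 lower mouse genes with the smallest unadjusted p among genes without overlap, with Lean in blue, CTRL in red, 1 symbol per library, and the range of the other 16 libraries as a gray bar. Hba-a1 is the gene whose 4 CTRL tumors, at 168 to 459, lie below the gray bar as well as below the Lean tumors, at 946 to 1193.

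Across all mouse genes tested, 219 (1.46%) were higher in Lean without overlap and 222 (1.48%) were lower. Of these, 49 and 19 had a symbol, a mean above 30 counts over the 8 libraries and a fold change above 1.5. The higher ones with the smallest p, beside Hba-a1, Kcnj8 and Ramp2, were of mixed kind. Hcar2, the niacin and ketone body receptor of fat and immune cells, was at 107, 80.5, 96.8 and 106 in Lean and at 7.68, 25.1, 47.4 and 37.7 in CTRL (log2 fold change 1.74, SE 0.56, 1.42 without CTRL 17). Irak2, a kinase of interleukin 1 and Toll-like receptor signaling, was at 225 to 264 in Lean and 128 to 202 in CTRL (0.67, SE 0.20). Smad6, an inhibitor of bone morphogenetic protein signaling, was at 78.9, 60.9, 52.7 and 51.3 in Lean and at 21.1, 51.2, 37.2 and 30.2 in CTRL, where Lean 54 and CTRL 31 nearly touched (0.81, SE 0.23).

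Dedd2, a death effector domain protein, had the smallest p of the higher genes (unadjusted p = 0.00072, adjusted p = 1 in edgeR). It was at 50.8 to 66.3 in Lean and 23.2 to 39.7 in CTRL, with a log2 fold change of 0.96 (SE 0.25) that was 0.89 without CTRL 17 and 1.13 without the 3 libraries. Rnf185, an endoplasmic reticulum ubiquitin ligase, Fam171a2 and Calcoco1, an autophagy receptor, had fold changes of 0.67, 0.74 and 0.67. Over the 10 higher genes the lowest fold change without the 3 libraries was 0.43, that of Kcnj8.

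Among the lower genes, Hnrnph3, a splicing factor, was at 248, 272, 223 and 295 in Lean and at 521, 352, 454 and 424 in CTRL (log2 fold change -0.74, SE 0.19, unadjusted p = 0.00084, adjusted p = 1 in edgeR). Hist1h4b, a histone H4 gene, was at 13.4, 20.6, 33.5 and 35.0 in Lean and at 111, 48.3, 110 and 94.3 in CTRL (-1.82, SE 0.51). Themis2, a signaling adaptor of B cells and macrophages, was at 170 to 200 in Lean and 224 to 355 in CTRL (-0.61, SE 0.27). Trim23, Saysd1, Cfap36, Tatdn1, Mettl2, 9430038I01Rik and Gm6525 had fold changes between -1.03 and -0.59. Many members of the histone H4 family share sequence, so the counts of Hist1h4b may include reads of its copies.

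In the tumor cells, interferon-stimulated genes were uniformly higher in Lean. All 34 tested members were higher in Lean (47.5% of all human genes were higher), with a median of 0.70 and values from 0.28 to 1.30. For 15 the unadjusted p was below 0.05, against 2.77% of all human genes in that direction, and for 0 the groups did not overlap. IFI6, a mitochondrial interferon-induced protein, was at 22202, 15547, 6158 and 17803 in Lean and at 367, 15513, 1265 and 11698 in CTRL. ISG15, a ubiquitin-like modifier, was at 2619, 3377, 2234 and 3520 in Lean and at 543, 2773, 849 and 2155 in CTRL (log2 fold change 0.89, SE 0.33, unadjusted p = 0.0116, adjusted p = 0.685 in edgeR). CTRL 31 and CTRL 70 lay within or near the Lean range, and CTRL 17 and CTRL 44 far below it.

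The interferon level was low in the same libraries as the epithelial level. It was 10.03, 10.26, 8.94 and 10.15 in Lean and 6.87, 9.95, 8.03 and 9.74 in CTRL, lowest in the 3 libraries with the lowest epithelial levels. Among the remaining libraries the orders differed. Lean 3 had the lowest epithelial level there (9.07) and CTRL 70 the lowest interferon level. The median over the 34 genes was 1.15 without CTRL 31 and 0.40 without CTRL 17, the latter with 34 of 34 higher and 2 at an unadjusted p below 0.05. Without the 3 libraries it was 0.31, with 31 of 34 higher and 9 at an unadjusted p below 0.05. Among all human genes, 229 of 16875 were higher with such a p without CTRL 17, and 308 of 16998 without the 3 libraries. The same list among host genes had a median of -0.20, as given above.

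Genes of antigen presentation by MHC class I were higher in 14 of 16 cases (median 0.32, 0.08 without CTRL 17 and 0.33 without the 3 libraries). B2M, the shared light chain, was at 19997, 17528, 14163 and 19669 in Lean and at 6748, 15430, 13738 and 14255 in CTRL (log2 fold change 0.50, SE 0.21), so that Lean 24 was level with 2 CTRL tumors. TAP1, which carries peptides into the endoplasmic reticulum, was at 665 to 1078 in Lean and at 288, 688, 527 and 833 in CTRL (0.63, SE 0.23). BST2, the antiviral tether tetherin, was at 1419 to 2095 in Lean and at 580 to 1628 in CTRL (0.66, SE 0.24).

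Epithelial genes were higher in 18 of 18 cases (median 0.62), keratin and cornified genes in 19 of 21 (median 0.64) and luminal genes in 11 of 11 (median 0.42). Without the 3 libraries these medians were -0.02, 0.09 and -0.04. The 3 were chosen for their low epithelial levels, so these medians are no independent result. CLDN7, a tight junction claudin, was at 2744, 2828, 1251 and 2620 in Lean and at 470, 2406, 960 and 1705 in CTRL (log2 fold change 0.76, SE 0.34, 0.41 without the 3). KRT6A, a keratin of stressed epithelium, was at 324 to 545 in Lean and at 0.911, 184, 57.0 and 326 in CTRL (1.5, SE 0.57, 0.76 without the 3).

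Mesenchymal genes went both ways. Of 22 members 16 were higher (median 0.19), 4 of them and 4 of the lower ones with an unadjusted p below 0.05. Of all human genes 2.77% were higher and 4.31% lower with such a p. FN1, which cancer cells as well as fibroblasts secrete, was at 52146, 39475, 23609 and 47685 in Lean and at 7906, 36704, 13726 and 27120 in CTRL (log2 fold change 0.93, SE 0.31, 0.54 without the 3 libraries). VIM had -1.23 (SE 0.51), or 0.26 without the 3. LOXL2, an enzyme that crosslinks collagen, was the member without overlap, at 802, 649, 606 and 690 in Lean and at 1704, 886, 1060 and 891 in CTRL (-0.73, SE 0.25, -0.32 without the 3). Of all human genes 1.08% were lower in Lean without overlap.

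Proliferation genes of the tumor cells were higher in Lean in 2 of 30 cases (47.5% of all human genes were higher) and lower in 28, with small values. The median was -0.26, -0.19 without CTRL 17 and -0.12 without the 3 libraries, and 3 lower members had an unadjusted p below 0.05 (4.31% of all human genes), 0 of them without CTRL 17. TOP2A, topoisomerase II alpha, was at 6379, 5324, 6949 and 6100 in Lean and at 9768, 7101, 10336 and 6124 in CTRL (log2 fold change -0.44, SE 0.21), high in CTRL 17 and CTRL 44. MKI67, the marker Ki-67, was at 2029 to 2803 in Lean and at 2643 to 3690 in CTRL (-0.35, SE 0.21). CCNA2 was at 299 to 382 in Lean and at 602, 389, 511 and 338 in CTRL (-0.45, SE 0.19).

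Hypoxia genes of the tumor cells were higher in 6 of 24 cases (median -0.27) and in 15 of 24 without CTRL 17 (median 0.07). Without the 3 libraries 7 of 24 were higher (median -0.07). BNIP3, a mitochondrial hypoxia gene, was at 884 to 1770 in Lean and at 4441, 1141, 1741 and 1099 in CTRL, its -0.80 becoming -0.14 without CTRL 17. CTRL 17 was thus the hypoxia-rich tumor in both species, with the levels 10.80 in the human and 8.68 in the mouse list, each the highest of the 8, and it also held the fewest endothelial transcripts.

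Genes through which tumor cells sense insulin and adipokines gave small list medians. Of 25 genes of the insulin axis 8 were higher (median -0.08). INSR, the insulin receptor, was at 454, 551, 256 and 444 in Lean and at 514, 480, 425 and 502 in CTRL (log2 fold change -0.18, SE 0.19), and IGF1R at 271 to 363 and 288 to 367 (-0.08, SE 0.20). IGFBP1, an insulin-repressed binding protein, was at 65.8, 94.8, 182 and 118 in Lean and at 937, 84.5, 577 and 76.5 in CTRL (-1.87, SE 0.76), high in CTRL 17 and CTRL 44 and 0.20 without the 3 libraries. LEPR, the leptin receptor, was at 39.2 to 133 in Lean and 25.9 to 93.1 in CTRL, and ADIPOR1, an adiponectin receptor, at 392 to 447 and 267 to 419.

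Fatty acid synthesis genes of the tumor cells were higher in 8 of 17 cases (median -0.01), in contrast to 16 of 17 among host genes. FASN was at 1508, 1473, 993 and 1252 in Lean and at 764, 1187, 1161 and 1215 in CTRL (log2 fold change 0.26, SE 0.15), and SCD at 1532 to 2936 and 1457 to 2906 (0.05, SE 0.23). Whether the fold changes of the species differ was not tested. LPIN1, a phosphatidate phosphatase, was at 317 to 429 in Lean and at 705, 372, 893 and 499 in CTRL (-0.72, SE 0.23, -0.21 without the 3). Fatty acid oxidation genes were higher in 12 of 25 (median -0.05), with HADHA and HADHB, the subunits of the mitochondrial trifunctional protein, at -0.50 each and at 0.19 and -0.16 without the 3. PLIN2, which coats lipid droplets, was at 843 to 2027 in Lean and 1043 to 2311 in CTRL. Sterol synthesis genes were higher in 13 of 22 (median 0.04) and oxidative phosphorylation genes in 11 of 42 (median -0.09).

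Stress and inflammatory programs of the tumor cells had members on both sides. Integrated and endoplasmic reticulum stress genes were higher in 14 of 21 cases (median 0.11), NRF2 targets in 13 of 20 (0.08), p53 targets in 12 of 22 (0.06), circadian clock genes in 7 of 15 (-0.01) and metallothioneins in 2 of 7 (-0.35, -0.02 without CTRL 17). Inflammatory cytokine genes were higher in 15 of 21 (0.13), but in 6 of 21 without the 3 libraries (-0.17). PTGS2, the prostaglandin synthase COX-2, was at 2420, 1680, 1206 and 2239 in Lean and at 400, 1365, 351 and 1473 in CTRL (log2 fold change 1.07, SE 0.41, 0.57 without the 3). Immediate early genes were higher in 6 of 15 (-0.14). IER3 and JUNB were the 2 members with an unadjusted p below 0.05, both higher (2.77% of all human genes were higher with such a p). IER3, a survival gene of acute signaling, was at 16936, 10032, 21995 and 12405 in Lean and at 10581, 10517, 8600 and 9197 in CTRL (0.65, SE 0.20, 0.69 without CTRL 17). AKR1C1, a ketosteroid reductase and NRF2 target, was at 346 in CTRL 44 and at 10.5 to 29.2 in the other 7.

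**Figure D4:**
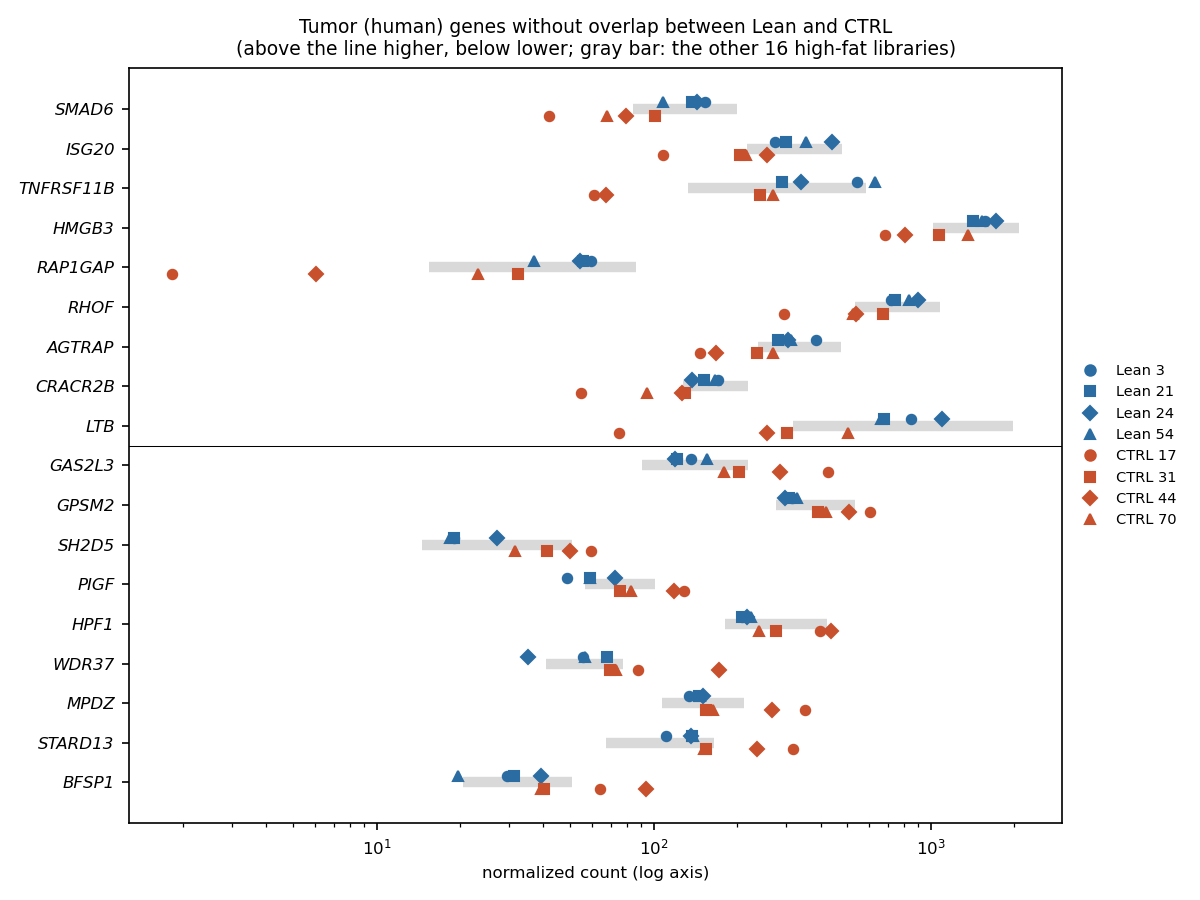
Normalized counts on a log axis of 9 higher and 9 lower human genes, from the 10 a direction with the smallest unadjusted p among genes without overlap, with Lean in blue, CTRL in red, 1 symbol per library, and the range of the other 16 libraries as a gray bar. In most rows CTRL 17 and CTRL 44 (red circle and diamond) lie farthest from the Lean tumors, and GPSM2 is at 298 to 329 in Lean and 392 to 601 in CTRL.

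Of all human genes tested, 187 (1.13%) were higher in Lean without overlap and 179 (1.08%) lower, and 34 and 19 met the same further conditions as in the mouse. The lower genes with the smallest p included GAS2L3, which links microtubules and actin in dividing cells, GPSM2, which orients the mitotic spindle, SH2D5, PIGF, HPF1, WDR37, MPDZ, STARD13 and BFSP1. GAS2L3 was at 136, 122, 120 and 156 in Lean and at 425, 202, 286 and 180 in CTRL (log2 fold change -1.04, SE 0.26, -0.47 without the 3), and GPSM2 at 298 to 329 and 392 to 601 (-0.62, SE 0.17, -0.35 without the 3). For MPDZ, a scaffold of tight junctions, -0.70 was -0.16 without the 3 libraries, and for STARD13, a GTPase activating protein, -0.73 was -0.25.

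Among the higher genes, LTB, lymphotoxin beta, was at 845, 675, 1096 and 661 in Lean and at 74.7, 303, 256 and 500 in CTRL (log2 fold change 1.52, SE 0.49, 0.85 without the 3). TNFRSF11B, the decoy receptor osteoprotegerin, was at 290 to 631 in Lean and at 61.1, 243, 67.3 and 269 in CTRL (1.49, SE 0.42, 0.93 without the 3). ISG20, an interferon-induced exonuclease, was at 273 to 439 and 108 to 256 (0.80, SE 0.23).

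RAP1GAP, HMGB3, RHOF, AGTRAP and CRACR2B had fold changes of 1.70, 0.66, 0.65, 0.64 and 0.62, all with CTRL 17 lowest. SMAD6 was at 153, 137, 143 and 108 in Lean and at 41.9, 101, 79.4 and 68.0 in CTRL (0.90, SE 0.23), alongside the 0.81 of the mouse gene Smad6. The order of the libraries was similar in both tables, and whether reads of 1 species were counted on the gene of the other was not tested. In the mouse table Grhl1, an epithelial transcription factor and the gene called by edgeR without CTRL 31, was at 24 to 52.4 in Lean and at 2.88, 57.0, 3.84 and 10.7 in CTRL.

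Lean tumors seldom lay beyond all high-fat tumors. Only DLL4 among human genes and 1 mouse gene without a symbol placed all 4 Lean tumors outside the range of all 20 high-fat libraries. DLL4, a Notch ligand of sprouting vessels, was at 72.5, 81.4, 79.4 and 78.7 in Lean, at 5.47, 57.4, 38.8 and 48.4 in CTRL, and at 20.9 to 62.2 in the other 16 libraries (log2 fold change 1.05, SE 0.39, edgeR unadjusted p = 0.0124, adjusted p = 0.685). It was named after its values were seen. Mouse Dll4 was at 122, 100.2, 149 and 108 in Lean and at 5.76, 77.2, 93.5 and 135 in CTRL, lowest in CTRL 17 as the human gene was. Whether reads of the mouse gene were counted on human DLL4 was not tested. For genes without overlap, the median of the other 16 high-fat libraries was set beside those of Lean and CTRL. It was nearer to Lean in 56.2% of the higher and 54.5% of the lower mouse genes, and in 63.1% and 70.9% of the human genes. The share over all genes tested was not taken, so these shares cannot be read as particular to the genes without overlap. The other 16 libraries shared the high-fat diet with CTRL but also carried the treatments.

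**Figure D5:**
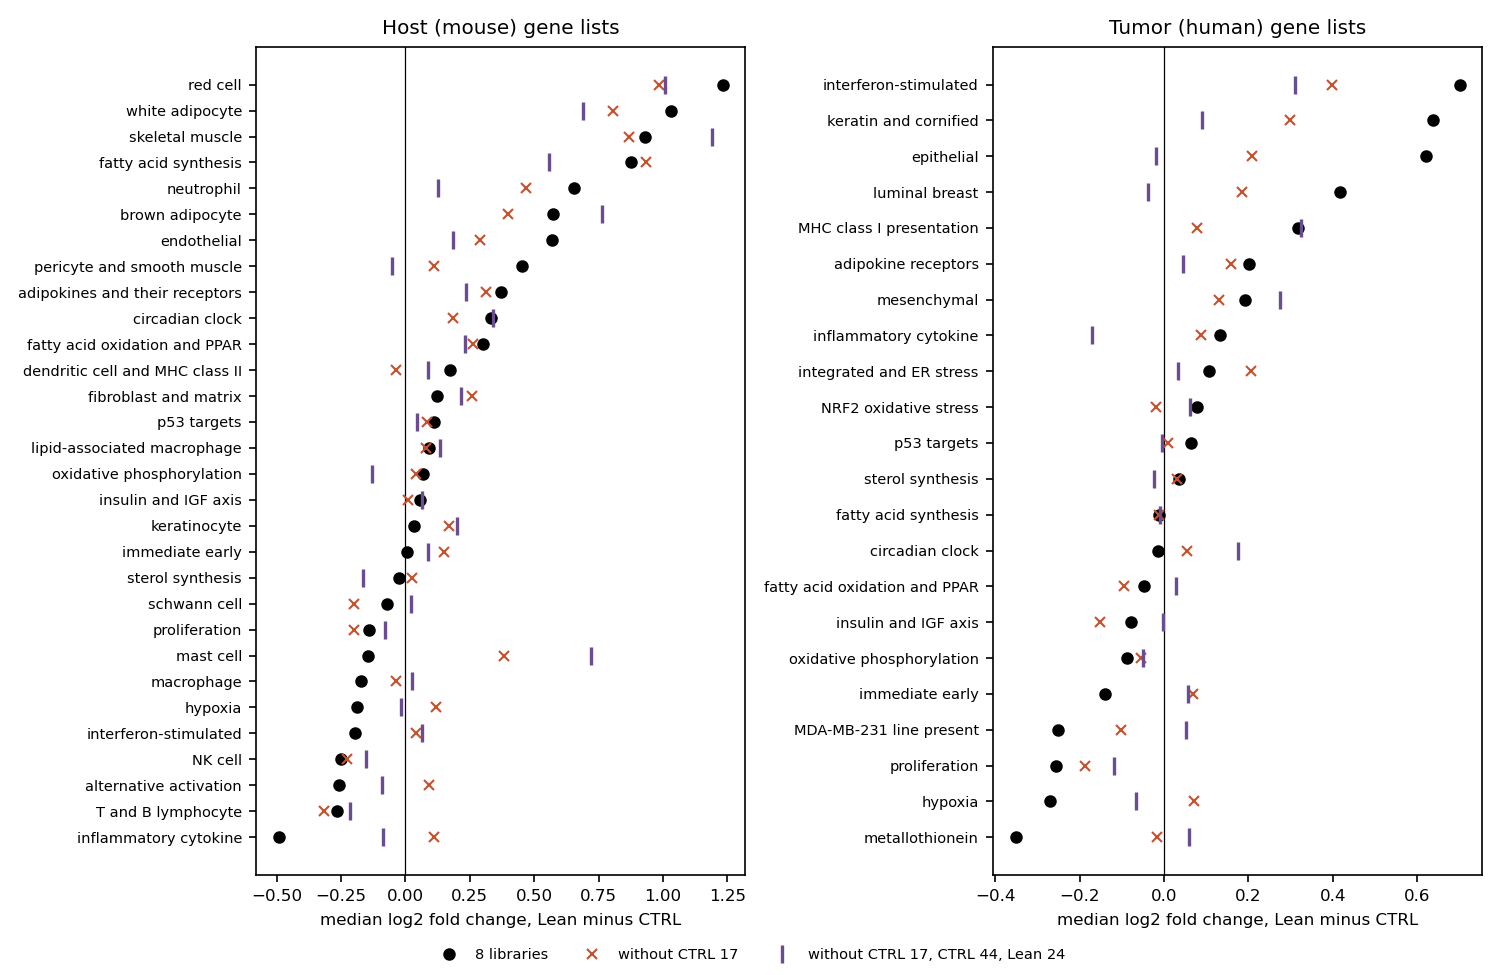
Median log2 fold change, Lean minus CTRL, of the 30 mouse lists (left) and 22 human lists (right), for all 8 libraries (black dots), without CTRL 17 (red crosses) and without CTRL 17, CTRL 44 and Lean 24 (purple bars). The red cell median went from 1.23 to 0.99 and 1.01, whereas the human epithelial median went from 0.62 to 0.21 and -0.02.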

How the data were processed

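Total RNA of whole tumors was made into 3′ end libraries (QuantSeq) and read for 50 bases. The authors aligned and counted the reads in the BlueBee software, apart for the mouse and the human genome, and deposited the read counts per gene for 24 libraries. The mouse build GRCm38 is named in the submitters' processing notes, and the human build was not given in the sources used here. The normalized counts deposited by the authors (signal values) are these counts divided by DESeq2 size factors over the 24 libraries, with DESeq2 1.22.2 per those notes. Of 16667 mouse and 18880 human genes, 2991 and 5259 had no symbol. No gene summed to fewer than 72 counts, so scarcer genes had been removed before deposition.

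Counts were fitted in edgeR 4.0.16 (R 4.3.3) with the quasi-likelihood F test, TMM scaling, the filterByExpr filter, a term for group over all 24 libraries and Benjamini-Hochberg adjustment per genome. The SE is the log2 fold change divided by the root of F. Single values were compared by exact permutation. Scripts were checked on simulated data. The 30 mouse and 22 human gene lists and the named genes were chosen with earlier results of these data known. Genes were named as the panel written for the lists, the 2 list members with the smallest p and the 2 with the highest mean. Up to 10 genes a direction with the smallest p were added. These had no overlap, a fold change above 1.5 and a mean above 30 counts over the 8 libraries. Hba-a2, Ms4a7, C1qc, Btbd6, Mgmt, HBD, DLL4, Lmod2 and Grhl1 were named after their values were seen. Some genes that the rule names are not reported here. Libraries are separate mice, named by the mouse number in the labels. Depth is given in the report, and errors are the spread between mice. Alternatives were DESeq2 1.42.0, other size factors, no filter, the 8 libraries alone, another group for 1 library with conflicting labels, each library left out and, chosen after seeing the data, the 3 libraries lowest in epithelial genes left out together and DESeq2 with each library left out.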

Additional observations from a re-analysis of the deposited data

Results flagged for a closer look

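A library was singled out where its gap to the nearest of its group, as a share of the range of the 4, exceeded Dixon's 95% critical value. This was applied to the share of human counts, the list levels and the named genes, 340 groups of 4 in all, of which 31 (9.12%) had such a library. Chance alone singles out about 1 in 20 where values are normally distributed, and related genes are not independent. Counts of the named genes were not put on a log scale, and many of these genes were chosen by their values in these groups. The 9.12% therefore cannot be set against 1 in 20. CTRL 17 was that library 12 times and Lean 24 was it 8 times.

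In CTRL 17 the host list levels were 7.04 for dendritic cell and MHC class II genes, below 8.15 to 8.28 in the other CTRL tumors, and 9.28 for interferon-stimulated genes, above 8.39 to 8.54. Saa3 was at 14786, Retnla at 3929, Rarres2 at 4626, Ccl2 at 513, Ccl8 at 4512, Ms4a7 at 1331 and Col1a1 at 43851 counts, each above the other 3. Its human NRF2 list level was 6.63, IGF1R was at 288 and FASN at 764 counts.

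In CTRL 44 the human sterol synthesis level was 8.24, below 8.50 to 8.55, Xcl1 was at 447 and AKR1C1 at 346 counts. In CTRL 31 Grhl1 was at 57.0 and Mgmt at 25.1, and in CTRL 70 Cxcl2 was at 177 counts.

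In Lean 24 the human keratin and cornified level was 6.99, below 8.34 to 8.45 in the other Lean tumors, with CLDN7 at 1251, MKI67 at 2029 and Ms4a7 at 691 counts, and with Ucp1 at 173, Padi4 at 6.71, Mxi1 at 408 and SH2D5 at 27.1, above the others. In Lean 54 Ttn was at 228 and HADHB at 396, in Lean 21 9430038I01Rik was at 30.9 and Col1a1 at 19260, and in Lean 3 STARD13 was at 111 counts.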

How the results depend on the processing

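In both species edgeR called 0 genes with median-of-ratios size factors, without the filter, with the 8 libraries alone, with 1 library of conflicting labels entered as MC and without CTRL 17, CTRL 44 and Lean 24. DESeq2 called 1 gene in each. With each library left out, edgeR called 0 to 1 in each species (1 without CTRL 31, which was Grhl1 in the mouse), and DESeq2 0 to 6 in the mouse (6 without CTRL 70) and 0 to 119 in the human table (119 without CTRL 31, 53 without CTRL 70). The causes were not tested. The number of genes at an unadjusted p below 0.05 was 468 in the mouse table, 318 without CTRL 17, 261 without Lean 3, 856 without CTRL 31 and 220 without the 3 libraries. It was 1175 in the human table, 560 without CTRL 17, 664 without Lean 3, 2416 without CTRL 31, 1997 without CTRL 70, 442 with the 8 libraries alone and 460 without the 3. The difference in the share of counts on human genes was -1.54 percentage points, from -2.22 (without CTRL 31) to -0.198 (without CTRL 44) with each library left out. With median-of-ratios size factors the list medians shifted by a median of 0.0077 in the mouse and 0.0069 in the human table. Of the 30 mouse list medians 1 changed sign with them, and of the 22 human ones 0. In the main fit the median log2 fold change over all genes was -0.01 in the mouse and -0.02 in the human table. No paired analysis was possible because the mouse numbers are not shared between the groups.

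Of 67 mouse and 50 human genes named, 55 and 45 kept their direction with each library left out. The others turned at 1 end of the range of log2 fold changes: Cpa3 (-0.51 to 0.44), Lep (-1.28 to 0.34), Fabp4 (-0.0126 to 1.48), Ucp1 (-0.45 to 1.86), Saa3 (-2.78 to 0.33), Retnla (-1.24 to 0.24), Ccl2 (-0.73 to 0.11), Arg1 (-0.0802 to 1.48), Adgre1 (-0.26 to 0.0041), Xcl1 (-0.62 to 0.0065), Col1a1 (-0.0401 to 0.35), Cdkn1a (-0.0419 to 0.29), INSR (-0.32 to 0.0032), IGF1R (-0.16 to 0.0066), SCD (-0.12 to 0.22), PLIN2 (-0.40 to 0.15) and AKR1C1 (-2.42 to 0.25). Without the 3 libraries, values turned for Cpa3 (1.13), Retnla (0.62), Ccl2 (0.17), Mxi1 (0.23), CDH1 (-0.15), VIM (0.26), IGFBP1 (0.20), SCD (-0.076), HADHA (0.19), PLIN2 (0.0276) and AKR1C1 (0.44). Of the 30 mouse list medians 7 changed sign without CTRL 17, and of the 22 human ones 4, or 6 and 10 without the 3 libraries.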

Other observations

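Further lists gave medians from -0.25 to 0.20. Host dendritic cell and MHC class II genes were higher in Lean in 8 of 13 cases (median 0.17, -0.04 without CTRL 17), Schwann cell genes in 4 of 8 (-0.07), keratinocyte genes in 3 of 5 (0.03) and immediate early genes in 7 of 14 (0.01). Of the tumor cells' adipokine receptor genes 6 of 8 were higher (0.20), and of the genes marking the MDA-MB-231 line 4 of 14 (-0.25, 0.05 without the 3 libraries low in epithelial genes). Of those 14 genes, 3 were lower and 1 was higher with an unadjusted p below 0.05 (4.31% and 2.77% of all human genes).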
